A study of Homo sapiens with 12 samples.

Results

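The insulin-like growth factor (IGF) binding proteins IGFBP1 to IGFBP7 and the receptor IGF1R were examined in A549 and PC9, 2 human cell lines derived from non-small cell lung cancer. The 8 genes, 7 binding proteins and 1 receptor, were found among the 12584 complete genes of the deposited count table by matching Ensembl identifiers to these gene names. They were chosen by family name and with the spread of IGFBP4 counts between libraries in view, so the levels of IGFBP4 are given here as a description and without a test. Each line had been infected with a lentivirus and selected with neomycin, carrying either an empty vector, as in A549-NEO and in PC9-NEO, or HOXC6, a homeobox transcription factor, as in A549-HOXC6 and in PC9-HOXC6. There were 3 RNA-seq libraries in each of the 4 groups. The methods of the study describe A549 as grown in RPMI medium and PC9 in DMEM with fetal bovine serum, so that line and medium cannot be told apart, and the sources used here do not say whether a stable line was a clone or a pool. The methods call the 3 libraries of a group independent replicates, and neither they nor the labels say whether these were separate cultures, so each p-value measures the spread between these libraries, which may be technical.

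IGF1 and IGF2 are secreted hormones that signal through IGF1R, a receptor tyrosine kinase that passes the signal to insulin receptor substrates, PI3K and AKT and favours growth and survival. IGFBP1 to IGFBP6 bind IGFs with high affinity in blood and tissue fluid. They can hold the ligand away from the receptor or deliver it, and proteases such as PAPPA release it by cutting the binding protein. IGFBP7 has a related domain at its amino end but binds IGFs weakly. In lung cancer, IGF1R has been studied as a drug target and several IGFBPs as secreted markers.

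The total counts were between 1212053 and 3286577 per library, with the lowest total in an A549-HOXC6 library, and 3 counts corresponded to between 0.913 and 2.48 CPM (counts scaled to a common library size). HOXC6 itself was not analysed here, so the vector labels could not be checked on the targeted gene. Of 7 epithelial markers listed, 4 were in the table. These were EPCAM, CDH1, KRT18 and KRT7, which summed to between 7816 and 11661 CPM in the 12 libraries. EPCAM alone, however, was at a mean of only 5.78 CPM in A549-NEO and 5.3 CPM in A549-HOXC6. The 6 markers of lung adenocarcinoma and alveolar cells, among them NKX2-1 and NAPSA, summed to only 2.15 to 10.1 CPM. Of 6 leukocyte markers listed, 2 were in the table. PTPRC, the pan-leukocyte marker, had 0 to 4 counts per library, and CD68, a lysosomal protein that is also found outside leukocytes, had 10 to 52. CD68 was at 9.17 CPM in A549-NEO and 18.4 CPM in A549-HOXC6 (log2 0.99, adjusted p = 0.00443, and log2 0.64, adjusted p = 0.0606 after the correction for GC content described further on), and its part in the changes of the members in A549 was not tested. The 3 endothelial markers in the table, of 5 listed, summed to at most 6.39 CPM. Of the 6 fibroblast markers, LUM, DCN, COL1A2, COL3A1 and PDGFRB had at most 4 counts in any library, and COL1A1 had 38 to 198 counts, with 67.8 CPM in A549-NEO, 64.4 CPM in A549-HOXC6, 24.8 CPM in PC9-NEO and 33.0 CPM in PC9-HOXC6.

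The members lie in pairs or alone in the genome (GRCh37, with GENCODE gene models). IGFBP1 (ENSG00000146678, chr7:45927959-45933259, plus strand) and IGFBP3 (ENSG00000146674, chr7:45951844-45961473, minus strand) are neighbours 18.6 kb apart whose 3′ ends face each other, with 0 protein-coding genes between them. IGFBP2 (ENSG00000115457, chr2:217497551-217529159, plus strand) and IGFBP5 (ENSG00000115461, chr2:217536828-217560272, minus strand) form a second such tail-to-tail pair 7.7 kb apart, again with 0 protein-coding genes between them. IGFBP4 (ENSG00000141753) occupies chr17:38599702-38613977 on the plus strand and IGFBP6 (ENSG00000167779) chr12:53491220-53496129 on the plus strand. Each of these 6 genes shares its chromosome with a HOX cluster. The distance was 0.836 Mb from IGFBP6 to the HOXC cluster, 7.992 Mb from IGFBP4 to HOXB, 18.688 Mb from IGFBP1 to HOXA and 40.442 Mb from IGFBP2 to HOXD. IGFBP7 (ENSG00000163453, chr4:57896939-57976551, minus strand) and IGF1R (ENSG00000140443, chr15:99191768-99507759, plus strand) lie on chromosomes without a HOX cluster.

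The sequences upstream of IGFBP4, IGFBP5 and IGFBP3 are shown because IGFBP4 and IGFBP5 differed most between the lines and IGFBP3 had the lowest adjusted p with HOXC6 in both. Each is the 250 bases before the RefSeq start of the gene (GRCh38.p14, a different build from the gene positions above), written 5′ to 3′ on the strand of the gene. Capitals mark exact matches, on either strand, to the TATA box TATAAA, to its variant TTTAAA, to the GC box GGGCGG that SP1 binds, or to the homeodomain core TAATTA. The matches do not overlap each other.
IGFBP4 (chr17:40443200-40443449, plus strand): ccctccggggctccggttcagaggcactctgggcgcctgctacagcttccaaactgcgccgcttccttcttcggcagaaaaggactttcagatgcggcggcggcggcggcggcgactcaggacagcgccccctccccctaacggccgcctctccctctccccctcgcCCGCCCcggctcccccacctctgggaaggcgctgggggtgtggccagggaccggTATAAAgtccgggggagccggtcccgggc
IGFBP5 (chr2:216695550-216695799, minus strand): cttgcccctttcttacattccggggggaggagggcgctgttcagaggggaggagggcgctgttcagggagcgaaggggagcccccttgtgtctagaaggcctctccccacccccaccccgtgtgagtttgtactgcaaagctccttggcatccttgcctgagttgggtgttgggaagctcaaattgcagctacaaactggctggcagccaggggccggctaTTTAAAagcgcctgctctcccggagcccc
IGFBP3 (chr7:45921273-45921522, minus strand): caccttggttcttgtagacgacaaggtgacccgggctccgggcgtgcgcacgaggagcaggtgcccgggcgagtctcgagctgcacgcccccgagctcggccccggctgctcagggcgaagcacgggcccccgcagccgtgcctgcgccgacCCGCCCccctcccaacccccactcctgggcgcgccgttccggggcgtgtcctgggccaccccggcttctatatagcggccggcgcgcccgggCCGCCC

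IGFBP4 held TATAAA beginning at position -29, counted back from the start, and a GC box at position -83 on the other strand. IGFBP5 held TTTAAA beginning at the same position -29 and no GGGCGG. The IGFBP3 sequence held 2 GC boxes and no exact match to TATAAA or TTTAAA. It does contain the letters TATATA near its end, which were not among the motifs searched, so a TATA-like stretch is not excluded there. TAATTA occurred in none of the 3 sequences. Of 35116 RefSeq promoters of this length, 10.7% held TATAAA, 11.3% TTTAAA, 42.6% GGGCGG and 4.3% TAATTA. The GC content was 71.6% with 24 CG dinucleotides in IGFBP4, 61.2% with 8 in IGFBP5 and 76.0% with 32 in IGFBP3, against medians of 58.0% and 11 over all promoters. Promoter entries were found for 6 of the 8 members. A match is a description of letters and not a measured site of binding.

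The highest level among the members was that of IGFBP4 in A549, a binding protein that mainly inhibits IGF action and is cut by PAPPA. Its raw counts were 42571, 36260 and 36532 for A549-NEO against 189, 240 and 287 for PC9-NEO. With HOXC6 the counts were 41349, 17450 and 32676 in A549, against 325, 190 and 561 in PC9. The A549-HOXC6 library with 17450 counts was also the shallowest, and after scaling for library size the 3 values of each group lay close together. IGFBP4 was at 14603 ± 238 CPM in A549-NEO and 115 ± 11.2 CPM in PC9-NEO (mean ± SD, n = 3 in each). The line difference was 7.02 on the log2 scale (SE 0.0575), or 130-fold, and it was 6.63 (SE 0.102) between the HOXC6 libraries. In A549 it was the gene with the second highest count in every library and took 1.43 to 1.57% of all counts, whereas it ranked between 1193 and 2107 in PC9. In bulk libraries of this kind, fewer expressing cells and less RNA per cell cannot be told apart.

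**Figure D1:**
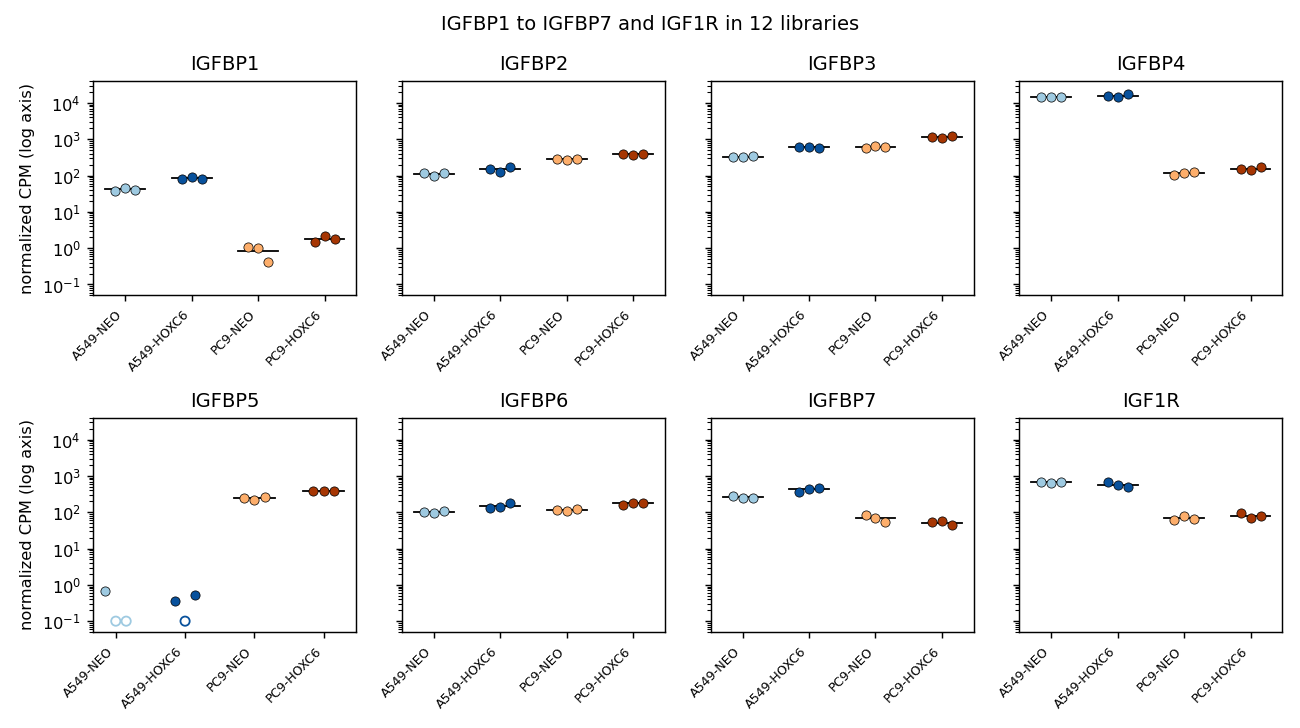
Normalized CPM (log axis) of each member in the 12 libraries, 1 panel per gene; points are libraries, lines are group means of 3 libraries, and open points at the bottom of the IGFBP5 panel are libraries with 0 counts. IGFBP4 and IGF1R lie higher in A549, IGFBP5 is near 0 in A549 and at 221 to 394 CPM in PC9, and IGFBP6 spans only 94.6 to 184 CPM over all libraries.

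IGFBP5, which binds to extracellular matrix and is the most conserved binding protein of the family, showed the opposite pattern to IGFBP4. The A549-NEO libraries held 2, 0 and 0 counts, the A549-HOXC6 libraries 1, 0 and 1, all within the 3 counts taken as the detection floor. The PC9-NEO libraries held 473, 440 and 621 counts, or 246 ± 22.2 CPM. The summed level was 975 times higher in PC9-NEO than in A549-NEO, with an exact 95% interval of 269 to 8056 that covers counting error only (1534 against 2 counts), and 1113 times higher in PC9-HOXC6 than in A549-HOXC6 (308 to 9195). No p-value is given, because IGFBP5 entered the test of the lines only through its counts in PC9. A stretch of 487 bp of IGFBP5 exon overlaps exons of another gene on the opposite strand, and the strand setting of the counting is not given in the sources used here.

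IGFBP1, a liver and decidua product that is regulated by insulin, was detected in A549 and close to the floor in PC9. The A549-NEO libraries gave 109, 116 and 104 counts, against 2, 2 and 1 for PC9-NEO. The ratio of A549-NEO to PC9-NEO was 51.8 with an exact 95% counting interval of 22.0 to 161, and no p-value is given because IGFBP1 entered the test only through its counts in A549. Its neighbour IGFBP3, the main carrier of IGFs in the circulation, went the other way and was at 327, 333 and 339 CPM in A549-NEO against 564, 639 and 619 CPM in PC9-NEO, with no overlap (log2 difference -0.84, SE 0.0643, adjusted p = 3.2e-14). The neighbours on chromosome 2 were both lower in A549: IGFBP2, which carries an integrin-binding motif, had 115, 98.3 and 116 CPM in A549-NEO and 287, 264 and 282 CPM in PC9-NEO (log2 difference -1.3, SE 0.0844, adjusted p = 2.44e-16).

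IGFBP7 was higher in A549-NEO, with 274, 250 and 244 CPM against 84.4, 70.3 and 52.9 CPM in PC9-NEO (log2 difference 1.94, SE 0.106, adjusted p = 1.54e-18). IGF1R was at 668, 643 and 675 CPM in A549-NEO and at 62.4, 76.8 and 63.5 CPM in PC9-NEO, a 10-fold difference without overlap (log2 3.32, SE 0.082, adjusted p = 2.3e-29). IGFBP6, which prefers IGF2 as its ligand, had overlapping libraries in the NEO groups, with 102, 94.6 and 109 CPM in A549-NEO and 113, 107 and 124 CPM in PC9-NEO. Its line difference did not pass the test (log2 difference -0.14, 95% interval -0.34 to 0.057, adjusted p = 0.191). Of the 5 members other than IGFBP4 that had counts well above the floor in both lines, 2 were higher in A549-NEO, 2 were lower and 1 did not pass. Over all 9076 genes tested, 36.9% were higher and 35.7% lower, so that most genes differed between the lines. Past a 2-fold change, 2 of these members were higher and 1 lower, against 36.0% of all genes in either direction. In the HOXC6 libraries the line contrast had the same direction for these 5 members, and IGFBP7 was then 8.35-fold higher in A549 (log2 3.06, SE 0.124, adjusted p = 3.57e-23), IGF1R 6.96-fold higher (log2 2.8, SE 0.119, adjusted p = 1.69e-22), and IGFBP6 did not pass (adjusted p = 0.0825).

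Per kilobase of exon, the IGFBP transcripts of the lines were composed differently. In A549-NEO, IGFBP4 made up 95.3% ± 0.102 of the summed IGFBP level (mean ± SD, n = 3), and in A549-HOXC6 92.9% ± 0.344. In PC9-NEO no member held a majority. There IGFBP3 made up 33.0% ± 1.91, IGFBP6 21.2%, IGFBP2 14.5%, IGFBP4 12.9%, IGFBP5 9.44% and IGFBP7 8.92%. In PC9-HOXC6 the share of IGFBP3 was 41.0% ± 1.04 and that of IGFBP7 4.26%. The summed level of the 7 binding proteins was 6953 ± 111 CPM per kb in A549-NEO and 403 ± 6.48 CPM per kb in PC9-NEO. In the HOXC6 libraries it was 7706 ± 684 in A549 and 622 ± 24.9 CPM per kb in PC9. IGFBP4, whose counts were used to choose the set, was alone at 6623 ± 108 CPM per kb in A549-NEO and 52.0 ± 5.08 in PC9-NEO. With HOXC6 it was at 7161 ± 639 in A549 and 70.4 ± 7.17 CPM per kb in PC9. The sums and shares in A549 thus mainly describe that gene. The binding proteins without IGFBP4 were not summed. These shares depend on the length taken for each gene, and with the longest transcript as the length IGFBP3 made up 43.4% in PC9-NEO and 52.4% in PC9-HOXC6.

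**Figure D2:**
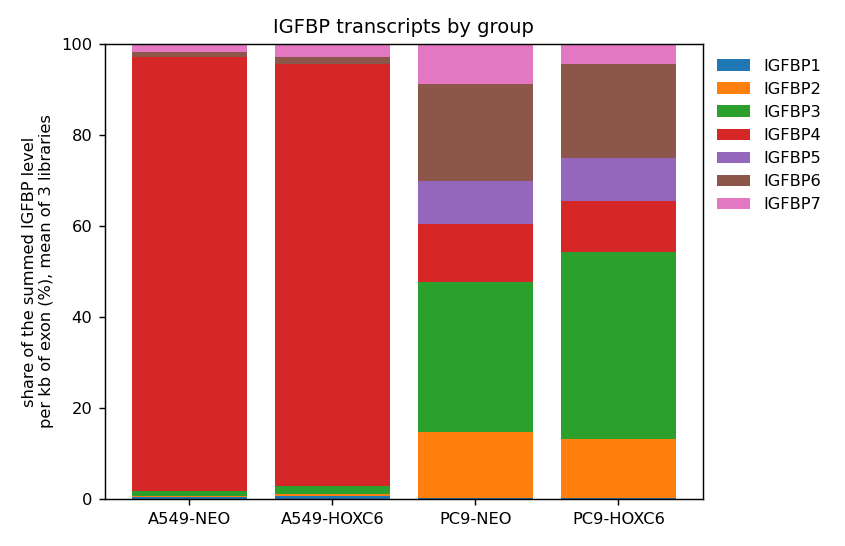
Stacked shares (%) of IGFBP1 to IGFBP7 in their summed level per kb of exon in each group, as means of 3 libraries. IGFBP4 fills 95.3% and 92.9% of the A549 bars, while IGFBP3 has the widest band in PC9 at 33.0% and 41.0%.

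The comparison of HOXC6 with NEO asks which members moved when HOXC6 was overexpressed. In A549, 5 binding proteins rose, IGF1R fell, and no member passed a 2-fold change. Of the 6 members that were tested apart from IGFBP4, all 6 passed the adjusted p of 0.05, 5 higher and 1 lower, while 18.9% of the 8771 genes tested were higher, 20.7% lower and 7.21% past a 2-fold change. Their median log2 fold change was 0.6, against -0.00047 over all genes tested. All members have exons above the median GC content of the genes tested, 48%, and the change with HOXC6 moved with GC content (described further on). After a correction for GC content and exon length, 3 members were higher and 1 lower in A549, IGFBP2 and IGFBP6 no longer passed, and the median was 0.3. In PC9, 4 of the 6 tested members rose, 1 fell and 1 did not pass, with 13.3% of 8419 genes higher, 14.2% lower and 4.53% past a 2-fold change. The median there was 0.53 against -0.0046, and 0.3 after the correction, with 4 higher and 1 lower. The shares and medians over all genes are those of the fit without the correction. They are not given for the corrected fit, so the corrected counts of members have no background beside them. The members tested were those with enough counts, which left out IGFBP5 in A549 and IGFBP1 in PC9.

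IGFBP3 rose in both lines. Its level was 327, 333 and 339 CPM in A549-NEO and 609, 600 and 588 CPM in A549-HOXC6, so that the groups did not overlap and differed 1.75-fold (log2 0.81, SE 0.0792, adjusted p = 6.69e-09). In PC9 it was 564, 639 and 619 CPM in the NEO libraries and 1142, 1107 and 1252 CPM in the HOXC6 libraries, a 1.93-fold rise (log2 0.95, SE 0.063, adjusted p = 3.57e-12). The libraries of A549-HOXC6 (mean 599 CPM) and PC9-NEO (mean 607 CPM) overlapped. IGFBP1 rose 1.94-fold in A549, from 38.0, 46.7 and 40.9 CPM to 80.0, 89.4 and 82.1 CPM (log2 0.95, SE 0.138, adjusted p = 4.13e-06). In PC9 it had 3, 3 and 6 counts in the HOXC6 libraries, and the ratio to NEO was 2.21 with an exact 95% counting interval of 0.726 to 8.02, so that no difference was detectable at this depth.

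IGFBP2 and IGFBP6 rose in both lines as fitted, but in A549 neither passed after the correction for GC content and exon length (log2 0.14, adjusted p = 0.284 for IGFBP2 and log2 0.17, adjusted p = 0.163 for IGFBP6). IGFBP2 had 149, 129 and 174 CPM in A549-HOXC6, all above the 98.3 to 116 CPM of A549-NEO (log2 0.42, SE 0.112, adjusted p = 0.00366). In PC9-HOXC6 it had 392, 365 and 392 CPM, all above PC9-NEO (log2 0.47, SE 0.0706, adjusted p = 6.91e-06). Its HOXC6 and NEO libraries thus did not overlap in either line. IGFBP6 had 129, 137 and 184 CPM in A549-HOXC6 (log2 0.52, SE 0.12, adjusted p = 0.00115) and 163, 180 and 178 CPM in PC9-HOXC6 (log2 0.59, SE 0.0919, adjusted p = 1.18e-05), above the NEO libraries in each line. The neighbour of IGFBP2, IGFBP5, could be followed only in PC9, where it rose 1.56-fold from 254, 221 and 263 CPM to 375, 377 and 394 CPM (log2 0.64, SE 0.0749, adjusted p = 1.4e-07). IGFBP4, described without a test, was 1.05-fold higher in A549-HOXC6 (log2 0.074, SE 0.0545) and 1.37-fold higher in PC9-HOXC6 (log2 0.46, SE 0.0984). The correction turned its direction in A549, to -0.23, and left it at 0.19 in PC9. Its A549-HOXC6 libraries were at 15106, 14856 and 17410 CPM against 14842, 14601 and 14366 CPM in A549-NEO, and those of PC9-HOXC6 at 156, 139 and 171 CPM against 102, 121 and 122 CPM.

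**Figure D3:**
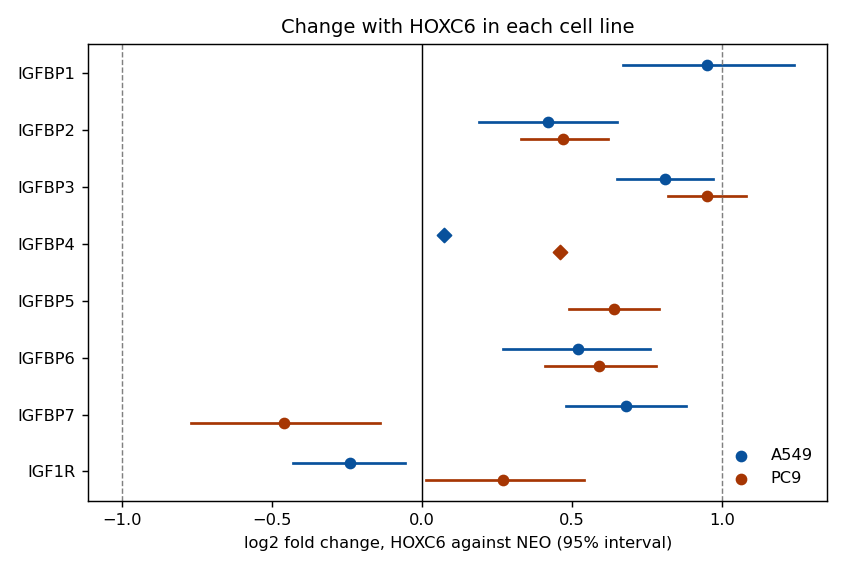
Log2 fold change of HOXC6 against NEO for each member in A549 (blue) and PC9 (red), with unadjusted 95% intervals from edgeR; IGFBP4 is drawn as a diamond without an interval because it was not tested, untested genes have no point, and dashed lines mark a 2-fold change. IGFBP2, IGFBP3 and IGFBP6 lie to the right of 0 in both lines, and IGFBP7 and IGF1R lie on opposite sides of 0.

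IGFBP7 changed in opposite directions in the 2 lines. In A549 it rose 1.6-fold, from 274, 250 and 244 CPM to 359, 436 and 476 CPM, without overlap (log2 0.68, SE 0.0961, adjusted p = 2.86e-06). In PC9 the libraries overlapped, with 84.4, 70.3 and 52.9 CPM in NEO and 53.3, 56.4 and 43.2 CPM in HOXC6, and the fall of 1.37-fold passed at an adjusted p of 0.0255 (log2 -0.46, SE 0.154). That fall in PC9 no longer passed with DESeq2 (adjusted p = 0.108) or without PC9-NEO replicate 1 (log2 -0.29), PC9-NEO replicate 2 (log2 -0.44), PC9-HOXC6 replicate 1 (log2 -0.5) or PC9-HOXC6 replicate 3 (log2 -0.31). The difference of the responses, tested as an interaction of line and HOXC6, was 1.19 on the log2 scale (SE 0.183, adjusted p = 5.66e-06) and passed under every one of the 21 alternative settings, where it lay between 1.01 and 1.36. IGFBP7 has 354 bp of exon that overlaps exons on the opposite strand.

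IGF1R was lower in A549-HOXC6, with 659, 577 and 481 CPM against 668, 643 and 675 CPM in A549-NEO (log2 -0.24, SE 0.0912, adjusted p = 0.0353). The groups overlapped, and the difference rested largely on A549-HOXC6 replicate 3, without which it was -0.11 on the log2 scale (adjusted p = 0.152). It also did not pass with DESeq2 (adjusted p = 0.0708) or in a model of all 12 libraries (adjusted p = 0.072), and did not pass without A549-NEO replicate 1, 2 or 3 or A549-HOXC6 replicate 2 (adjusted p from 0.0648 to 0.111). In PC9, IGF1R had 95.5, 71.0 and 76.7 CPM in the HOXC6 libraries, overlapping the 62.4 to 76.8 CPM of NEO, and did not pass (log2 0.27, 95% interval 0.013 to 0.54 before adjustment, adjusted p = 0.113). The difference between the lines was -0.47 (SE 0.156, adjusted p = 0.0278). It did not pass when any of 6 single libraries was left out, with values from -0.47 to -0.34.

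For the other members the difference in response between the lines did not pass. It was 0.0011 for IGFBP2 (95% interval -0.24 to 0.25, adjusted p = 1), -0.093 for IGFBP3 (-0.3 to 0.12, adjusted p = 0.583) and -0.031 for IGFBP6 (-0.35 to 0.29, adjusted p = 0.933). The intervals were wide for IGFBP1 (-0.095, from -1.06 to 0.87) and IGFBP5 (-0.26, from -4.18 to 3.67), each near the floor in 1 line. For IGFBP4 the difference was -0.33, given without a test. Of the 7 members other than IGFBP4, 1 passed higher in A549 and 1 lower, against 10.9% and 8.44% of 9229 genes. IGFBP7 was the 1 member past a 2-fold difference, against 5.15% of all genes. When the 4 groups were put in order of their mean level, the libraries of neighbouring groups were apart throughout for IGFBP1, IGFBP2 and IGFBP4. For IGFBP1 the PC9 libraries held only 1 to 6 counts, near the floor, and for IGFBP4 the A549 groups differed only 1.05-fold. The share of all genes with groups apart in this way was not counted, so the order is a description only. Neighbours overlapped for IGFBP3 (PC9-NEO and A549-HOXC6), IGFBP5 (the A549 groups), IGFBP6 (PC9-HOXC6 and A549-HOXC6, PC9-NEO and A549-NEO), IGFBP7 (the PC9 groups) and IGF1R (both groups of each line).

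In both lines the change with HOXC6 moved with the GC content of the exons. Across all genes tested, which are not independent replicates, Spearman's rho between GC content and fold change was 0.531 for A549, 0.526 for PC9 and -0.0144 for the contrast of the NEO lines. The median log2 fold change was -0.54 in A549 and -0.37 in PC9 among the genes with a GC content of 32.4% to 41.8%, and 0.21 and 0.17 among those with 56.2% to 72.3%. The members lie at or above the median GC content of 48%, from 48.9% in IGFBP7 and 50.3% in IGFBP1 and IGFBP3 to 62.6% in IGFBP4 and 63.2% in IGFBP6. After each library was corrected for smooth trends on GC content and exon length, the rises of IGFBP2 and IGFBP6 in A549 and the direction of IGFBP4 in A549 were lost, as given beside their values.

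The other members that had passed did so after the correction too, at smaller size for the genes that rose. IGFBP3 was at 0.57 in A549 (adjusted p = 1.5e-08) and 0.78 in PC9 (adjusted p = 1.28e-10), IGFBP1 at 0.65 in A549 (adjusted p = 0.000225) and IGFBP7 at 0.42 in A549 (adjusted p = 6.43e-05). In PC9, IGFBP5 was at 0.46 (adjusted p = 2.39e-05), IGFBP6 at 0.35 (adjusted p = 0.00535) and IGFBP2 at 0.24 (adjusted p = 0.0107). The decreases were larger, with IGFBP7 in PC9 at -0.59 (adjusted p = 0.0054) and IGF1R in A549 at -0.4 (adjusted p = 0.000105). The part of the GC trend in the uncorrected changes was not tested further.

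**Figure D4:**
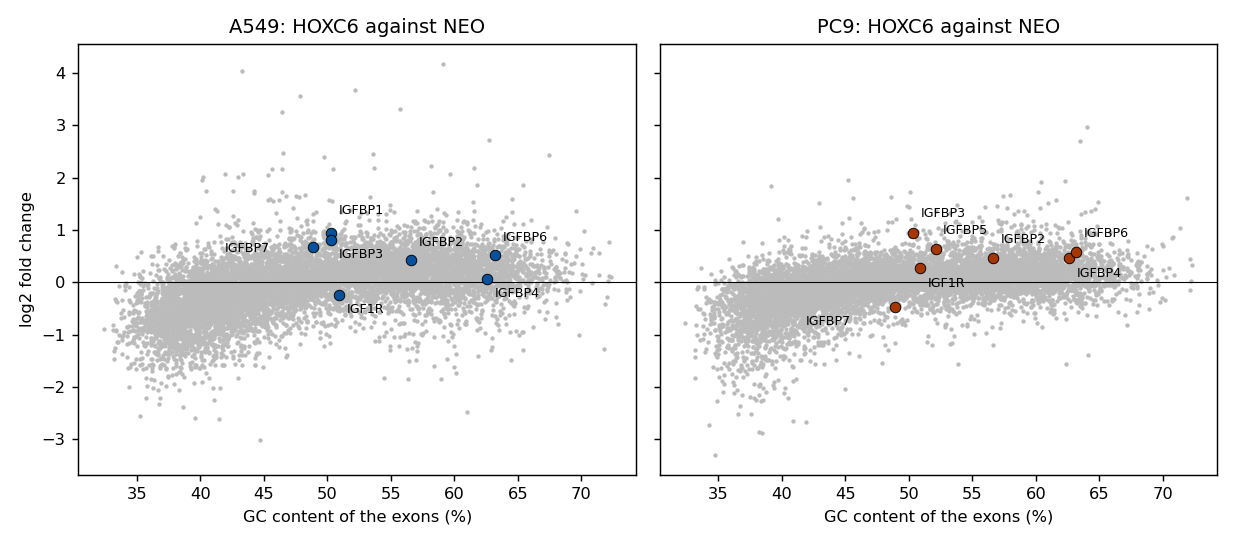
Log2 fold change of HOXC6 against NEO (vertical axis) against the GC content of each gene's exons (%), with all genes tested in grey and members in colour, for A549 on the left and PC9 on the right. The grey cloud bends below 0 at low GC content in both lines, and the members, from 48.9% to 63.2%, lie right of that bend.

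The ligands, proteases and downstream proteins of the pathway were described from lists of named genes. IGF1 was listed at or near 0, with group means between 0 and 0.284 CPM, and INSR, IGF2R and PAPPA were not analysed here. IGF2, the ligand that fetal and many tumour cells secrete, was at 11.2 ± 2.52 CPM in A549-NEO and 112 ± 7.69 CPM in PC9-NEO (log2 difference -3.27, adjusted p = 2.36e-20). With HOXC6 it rose to 23 ± 1.74 CPM in A549 (log2 0.99, SE 0.245, adjusted p = 0.00207) and to 161 ± 1.68 CPM in PC9 (log2 0.53, SE 0.0917, adjusted p = 5.72e-05), and these responses were not shown to differ (adjusted p = 0.12). After the GC correction they were 0.77 and 0.29 (adjusted p = 0.0133 and 0.022). Of the 3 tested ligands, other receptors and carriers, IGF2 rose in both lines, TMEM219, a receptor described for IGFBP3, passed in neither as fitted (log2 -0.16 and 0.29) and was lower in A549 after the GC correction (log2 -0.44, adjusted p = 0.00266), and LRP1, an endocytic receptor that can bind IGFBP3, fell in A549 (log2 -0.27, adjusted p = 0.0104) and rose in PC9 (log2 0.89, adjusted p = 1.88e-11). TMEM219 and LRP1 were named after their values were seen. The responses of LRP1 differed by -1.11 (adjusted p = 5.24e-10). The GC correction left it at -0.42 in A549 and 0.72 in PC9.

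Among proteases that cut IGFBPs and their inhibitors, the stanniocalcins STC1 and STC2, secreted inhibitors of PAPPA, passed in both lines. STC1 fell from 51.2 ± 5.04 to 29.9 ± 3.3 CPM in A549 (log2 -0.8, SE 0.166, adjusted p = 0.000375) and rose from 9.78 ± 3.55 to 17.1 ± 3.84 CPM in PC9 (log2 0.82, SE 0.294, adjusted p = 0.0353). The difference between these responses was -1.58 (adjusted p = 0.000332). STC2 fell in both, from 86 ± 6.26 to 65.2 ± 6.92 CPM in A549 (log2 -0.45, adjusted p = 0.00612) and from 176 ± 17.6 to 139 ± 6.39 CPM in PC9 (log2 -0.34, adjusted p = 0.00549), and was at -0.7 and -0.51 after the GC correction. In all, 1 of 4 tested genes of this list was higher and 2 lower in A549, the higher being HTRA1, a secreted serine protease named here after its value was seen (log2 0.39). HTRA1 was at 0.057 after the GC correction (adjusted p = 0.688), which left 0 higher and 2 lower. In PC9, 1 of 3 was higher and 1 lower, before and after the correction. Over all genes tested, 18.9% were higher and 20.7% lower in A549, and 13.3% and 14.2% in PC9, all without the correction.

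Other proteins with an IGFBP domain include the CCN family of secreted matrix proteins. In A549, 4 of 7 tested were higher and 0 lower, against 18.9% and 20.7% of all genes, and 3 were higher and 1 lower after the GC correction. In PC9, 1 of 5 was higher and 1 lower, against 13.3% and 14.2%, and 0 were higher and 2 lower after it. The shares of all genes are those of the fit without the correction. CTGF (CCN2), a target of YAP and TGF-beta signalling, rose from 10.2 ± 3.21 to 22.8 ± 9.08 CPM in A549 (log2 1.18, SE 0.284, adjusted p = 0.00167) and fell from 17 ± 2.54 to 7.39 ± 2.62 CPM in PC9 (log2 -1.14, SE 0.297, adjusted p = 0.00418). The CTGF responses differed by 2.36 (SE 0.424, adjusted p = 6.8e-05). WISP2 (CCN5), a family member that lacks the carboxy-terminal domain, rose from 111 ± 14.2 to 281 ± 54.3 CPM in A549 (log2 1.31, SE 0.116, adjusted p = 1.06e-09) and was at 1.28 and 1.22 CPM in PC9-NEO and PC9-HOXC6, too low for the test. After the GC correction CTGF in A549 was at 0.86 (adjusted p = 0.0135), below a 2-fold change, CTGF in PC9 at -1.33 and WISP2 in A549 at 1.02. The other genes of this list that passed in A549 were CYR61 and HTRA1, at 0.58 and 0.39, and the gene that passed higher in PC9 was KAZALD1, at 0.6. With the correction CYR61 was at 0.39 (adjusted p = 0.0462), HTRA1 and KAZALD1 did not pass (adjusted p = 0.688 and 0.194), and CRIM1 passed lower in A549 (-0.29) and in PC9 (-0.26). These 4 were named after their values were seen.

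Among the adaptors and the PI3K-AKT cascade below IGF1R, 5 of 22 tested genes were higher, 7 lower and 10 did not pass in A549, with 3 higher, 5 lower and 14 not passing in PC9. Over all genes tested, 18.9% were higher and 20.7% lower in A549, and 13.3% and 14.2% in PC9, all without the GC correction. After the correction, 3 were higher and 5 lower in A549, and 2 and 3 in PC9. Some of these passed only with the correction. They were PDPK1 (-0.47) and FOXO3 (-0.53) in A549, and PIK3CB (0.45), GSK3B (0.28), PIK3R3 (-0.33) and AKT1 (-0.24) in PC9, named after their values were seen. As fitted, the median log2 fold change was -0.28 in A549 and -0.075 in PC9. Named after their values were seen, the higher genes were GRB10 (0.7), TSC2 (0.43), AKT1 (0.4), RPTOR (0.36) and GSK3A (0.28) in A549 and FOXO1 (0.57), SHC1 (0.38) and FOXO3 (0.26) in PC9. The lower genes in PC9 were RICTOR, PIK3CA, SOS2 (-0.99), RPS6KB1 (-0.97) and SOS1 (-0.92). Of these, RPTOR and GSK3A in A549 and FOXO1, SHC1, FOXO3, SOS1, SOS2 and RPS6KB1 in PC9 did not pass after the correction (adjusted p from 0.0581 to 0.946), while GRB10 (0.49), TSC2 (0.29) and AKT1 (0.22) in A549 did. GRB14, an adaptor that dampens insulin receptor signalling, fell from 45.1 ± 10.2 to 16.4 ± 4.26 CPM in A549 (log2 -1.57, SE 0.215, adjusted p = 1.78e-06) and was at 2.53 CPM or lower in PC9. RICTOR, a subunit of the mTOR complex that phosphorylates AKT, fell in A549 (log2 -1.46, SE 0.198, adjusted p = 1.47e-06) and in PC9 (log2 -1.23, SE 0.16, adjusted p = 7.82e-07). PIK3CA, the catalytic subunit of PI3K, fell in A549 (log2 -1.03, SE 0.311, adjusted p = 0.00967) and in PC9 (log2 -1.02, SE 0.2, adjusted p = 0.000257). The exons of PIK3CA have a GC content of 34.9% and those of RICTOR 36.2%, which places both in the range of 32.4% to 41.8%. After the GC correction PIK3CA did not pass in either line (log2 -0.19, adjusted p = 0.699 in A549 and log2 -0.28, adjusted p = 0.343 in PC9), and RICTOR passed in both below a 2-fold change (log2 -0.75 and -0.61). The 3 IGF2 mRNA-binding proteins had 0 higher in both lines, with 2 lower in A549 and 1 lower in PC9. IGF2BP3 passed in both, at -0.51 and -0.54, and IGF2BP2 in A549 at -0.69, both named after their values were seen. With the GC correction these were -0.4, -0.47 and -0.8, and passed.

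**Figure D5:**
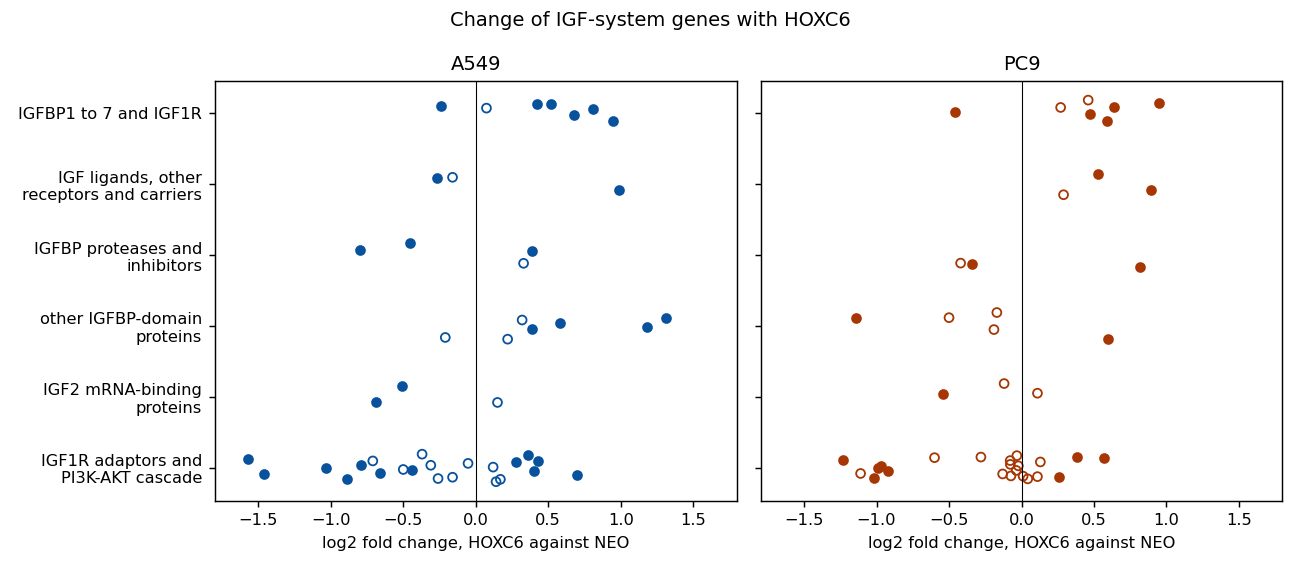
Log2 fold change of HOXC6 against NEO for the tested members and for the genes of each pathway list in A549 and PC9; each point is a gene, filled where the adjusted p was under 0.05 and open otherwise, with IGFBP4 open because it was not tested and with random vertical spread within a row. Points of the cascade list reach -1.57 in A549 and -1.23 in PC9, whereas the members lie between -0.46 and 0.95.

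The pattern of IGFBP4 across the 12 libraries was compared with 7882 other genes by Pearson correlation of log2 CPM with a pseudocount of 0.5. The closest were TGFBI (r = 0.9993), MYO1E (r = 0.999) and CACNG7 (r = 0.999). The libraries fall into 2 clusters by line, so these values mainly describe genes that were high in A549 and low in PC9.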

How the data were processed

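The 12 RNA-seq libraries of stably infected A549 and PC9 cells were compared, 3 in each of 4 groups taken from the labels. The deposited values are raw counts per Ensembl gene, 1 column per library. According to the submitters' processing notes, the authors used bcl2fastq 2.19, HISAT2 2.1.0 and HTSeq 0.9.1 with GRCh37.p13, and DESeq2. The strand setting of the counting is not given in the sources used here, and reads shared by similar or overlapping genes may have been lost or moved. The table held 12584 complete genes, and 1 incomplete last entry was left out. Gene positions, exon lengths and GC content came from GENCODE models on GRCh37, which held 12463 of the genes.

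A filter on low counts (filterByExpr) was followed by TMM scaling, and contrasts were tested with the quasi-likelihood test of edgeR 4.0.16 in R 4.3.3, each on the 6 libraries it concerns and the difference between lines on all 12. P-values were adjusted over all genes tested by the Benjamini-Hochberg method. A gene was said to rise or fall at an adjusted p under 0.05, and a second threshold was a 2-fold change. The methods of the study name DESeq2, which was run as an alternative (version 1.42.0). Normalized CPM were scaled over all 12 libraries, and fold changes are those of the fitted contrasts. Intervals for low counts are exact 95% intervals on summed counts and cover counting error only. Replicates of a group differed beyond sampling noise in all 12 pairs (chi-square per degree of freedom 1.58 to 4.26). The steps were tested on simulated data. Other alternatives were other scalings, filters and thresholds, a replicate block, a correction for GC content and exon length fitted with mgcv 1.9.3, and leaving out each library.

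The members and the pathway lists were chosen with earlier results of these data known. Genes named by rule are the 8 members, list genes past a 2-fold change with HOXC6 in either line, IGF1, IGF2, INSR, IGF2R, PAPPA, STC1 and STC2 where measured, and the 3 genes most like IGFBP4 among those at a mean of at least 10 CPM. Other list genes were named after their values were seen, where a count was small, and are marked so. IGFBP4 has no p-value, because its counts were used to choose the set, and counts of members that passed leave it out. Promoter sequences are from RefSeq (GRCh38.p14).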

Additional observations from a re-analysis of the deposited data

Results flagged for a closer look

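The change of IGFBP7 with HOXC6 differed between the cell lines by 1.19 on the log2 scale (A549 minus PC9, SE 0.183, 95% interval 0.82 to 1.55, adjusted p = 5.66e-06 for the interaction in edgeR). IGFBP7 was higher in 3 of 3 A549-HOXC6 libraries than in any A549-NEO library, while its PC9 libraries overlapped.

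The change of IGF1R differed between the lines by -0.47 (SE 0.156, 95% interval -0.79 to -0.16, adjusted p = 0.0278). Its HOXC6 and NEO libraries overlapped in both lines.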

How the results depend on the processing

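Over the alternatives tried, 428 of 454 values of the tested members kept their side of the threshold, 25 no longer passed but kept their direction, 1 passed in addition, and 0 of those that had passed reversed. The 454 include IGFBP1 and IGFBP5 between the NEO lines, at 16 settings each. Both entered that test only through the line where they were high. The 25 were IGF1R in A549 (8) and in the difference between lines (7), IGFBP7 in PC9 (6), and IGFBP2 and IGFBP6 in A549 (2 each, with the GC correction). The 1 was IGFBP6 between the NEO lines with library size as the only scaling (log2 -0.26, adjusted p = 0.019). Members past a 2-fold change in A549 numbered 0, 1 in the model of 12 libraries and 0 to 1 when single libraries were left out (1 without A549-NEO replicate 2), while 6 passed the adjusted p at any size. In PC9 members past a 2-fold change numbered 0, and 5 passed the adjusted p at any size. Between the NEO lines members past a 2-fold change numbered 3 with at least 10 counts required in every library. That filter removed IGFBP1 and IGFBP5, which entered the test only through the line where they were high. For the difference between lines members past a 2-fold change numbered 1, and 2 passed the adjusted p at any size. The members with an adjusted p under 0.05 there numbered 2, 1 at a threshold of 0.01, and 1 to 2 when single libraries were left out.

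Replicate numbers did not pair the libraries, with correlations of same-numbered deviations between -0.0501 and 0.0443. With the replicate number as a block, 6 members passed in A549, 5 in PC9 and 2 for the difference, as without the block. Genes past a 2-fold change numbered 632 in A549, 381 in PC9, 3270 between the NEO lines and 475 for the difference. They numbered 419, 233, 2078 and 307 with at least 10 counts in every library. Genes that passed the adjusted p at any size numbered 3469, 2316, 6596 and 1789. With the GC correction, genes past a 2-fold change numbered 327 in A549 and 189 in PC9, and 323 and 191 with the block added. Of 32 group levels per kb, 16 moved by more than 1 SD when the longest transcript was the length. Depth limits IGFBP1 in PC9 and IGFBP5 in A549, which lie near 3 counts.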
